A study of Mus musculus with 24 samples.

Results

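The WT spleen time course after myocardial infarction (MI) consisted of 4 arrays, 1 each for control mice and for mice at 1, 2, and 4 weeks after MI, of 24 arrays in the series. They were chosen by genotype and tissue, as the arrays labelled WT and spleen, and no measured value entered the choice. Each array carried RNA of CD11b+ cells from the spleens of 5 pooled male mice on the Balb/C background. The paper's methods give an age of 10 weeks for the purchased mice, and no age at collection is stated. The WT mice carried no knockout and, MI apart, no treatment is named for them. The other arrays of the series came from bone marrow of WT mice and from both tissues of mice that lack histidine decarboxylase (HDC-KO) or STAT6 (STAT6-KO). The comparison mice are labelled control, and the labels do not say whether they had a sham operation. The paper's methods call them control mice, while its results call the comparison for spleen cells at 1 week a sham group. CD11b, the integrin alpha M chain encoded by Itgam, is a surface protein of neutrophils, monocytes, macrophages, and some lymphoid cells, so the isolated cells were a mixture of types. With 1 pooled array at each time there was no measure of the spread between mice, and no difference given here has a test. In such a mixture, fewer cells of a type and less RNA per cell cannot be told apart.

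After MI the spleen is known to release stored monocytes and to become a site where blood cells are made, while neutrophil and monocyte production is raised in the bone marrow. Its resident red pulp macrophages take up old erythrocytes and recycle their iron, and its white pulp holds B cells and T cells. Type I interferons switch on antiviral genes through a promoter element bound by STAT and IRF proteins, the interferon-stimulated response element (ISRE). Interferon-gamma acts largely through the gamma-activated sequence (GAS) and induces guanylate-binding proteins, immunity-related GTPases, and the chemokines Cxcl9 and Cxcl10.

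The 4 arrays lay on a single slide, in the order control, 1 week, 2 weeks, and 4 weeks, so position on the slide and time after MI cannot be told apart. Levels are given as log2 of the processed signal minus the array's 75th percentile, so that 0 is a signal as bright as that percentile and a difference of 1 is a 2-fold difference. Where a gene has 4 values in a row they are its levels in control and at 1, 2, and 4 weeks, and where it has 3 they are its log2 differences from control at those times. The 75th percentile itself was 1587 to 1734 signal units. The share of spots well above background was 78.4% in control, 70.4% at 1 week, 75.5% at 2 weeks, and 78.3% at 4 weeks. The SD of log2 signals among repeated spots of a probe on 1 array was 0.126 to 0.197, which covers spot-to-spot error only. Itgam was read at 3.92 in control, 4.83 at 1 week, 4.31 at 2 weeks, and 4.52 at 4 weeks, so it was lowest in control and highest at 1 week. Of its other probes, 1 gave differences of 0.58, -0.39, and 0.60 at the 3 times, below control at 2 weeks. All 11 genes of the CD11b+ myeloid list on the array were above background on all 4 arrays. The T cell, B cell, NK cell, plasma cell, platelet, and erythroid lists were also above background with every member on the array in all 4 preparations. Thus, marker RNA of cells other than myeloid cells was present at each time.

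At 1 week after MI, 1531 of 22650 genes or transcripts above background on both arrays were at least 2-fold higher than in control (6.76%) and 2424 were at least 2-fold lower (10.7%). At 2 weeks, 1347 of 23971 were at least 2-fold higher (5.62%) and 2145 at least 2-fold lower (8.95%). At 4 weeks the counts were 869 of 24817 higher (3.5%) and 546 lower (2.2%). In either direction 17.5%, 14.6%, and 5.7% of genes passed 2-fold at the 3 times. The spread of differences narrowed in the same order, with an SD over genes of 0.807, 0.722, and 0.502. Differences of at least 4-fold were found for 228 genes upward and 505 downward at 1 week, 162 and 264 at 2 weeks, and 79 and 68 at 4 weeks. The balance of higher and lower genes moved with the scaling of the arrays. Thus, at 1 week 38.7% of the genes past 2-fold were higher with the 75th percentile, 66.0% when arrays were scaled to the median, and 52.4% with quantile normalization. At 2 weeks the shares were 38.6%, 61.6%, and 51.2%, and at 4 weeks 61.4%, 60.1%, and 54.1%. Scaling to the median placed the median of all genes 0.32 higher at 1 week and 0.23 higher at 2 weeks than the 75th percentile did. All 3 comparisons share the control array, so an unusual control level would appear in each of them.

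Gene lists differed in size and in timing. Of 32 lists of pathway genes and cell type markers, the interferon-gamma list had the highest median difference at 1 week (2.20), followed by the interferon-induced antiviral list (1.72), the neutrophil granule list (1.57), and the cell cycle list (1.32). The lowest medians at 1 week belonged to the red pulp and tissue macrophage list (-1.40), the T cell list (-1.31), and the platelet list (-1.21). At 2 weeks the interferon-gamma list (1.75) and the plasma cell list (1.67) had the highest medians. At 4 weeks the interferon-gamma list (1.50) and the basophil and mast cell list (1.04) were highest, and the red pulp list was lowest (-1.54). The median difference over all genes was -0.05, -0.03, and 0.10 at the 3 times.

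**Figure D1:**
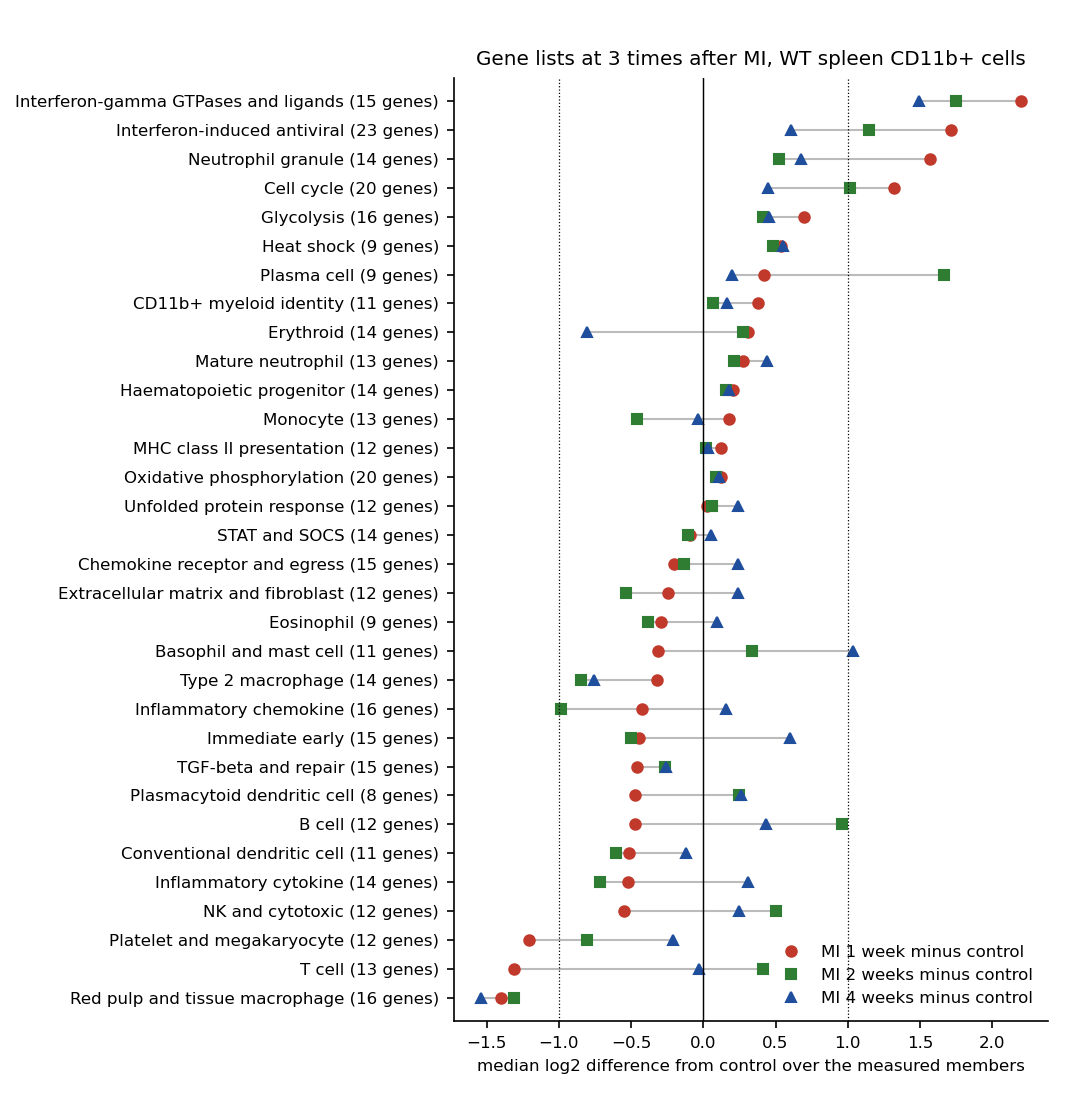
Median log2 difference from control over the measured members of 32 gene lists, on the x axis, at 1 week (circles), 2 weeks (squares), and 4 weeks (triangles) after MI in WT spleen CD11b+ cells, with dotted lines at 2-fold. The interferon lists lie furthest right at 1 week, the plasma cell list at 2 weeks stands apart from its 1-week and 4-week values, and the red pulp macrophage list lies at or beyond -1.31 at all 3 times.

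The interferon-induced antiviral list had a median above control at all 3 times, with the highest levels at 1 week. Of its 23 genes, 18 were at least 2-fold higher than control at 1 week (6.76% of all genes), 14 at 2 weeks (5.62%), and 8 at 4 weeks (3.5%), and none was 2-fold lower. Each of the 23 genes had its highest level on the 1-week array, against 23.4% of all genes, and 18 followed the order 1 week, 2 weeks, 4 weeks, control, against 9.55% of all genes. With other scalings 22 or 23 of the 23 peaked at 1 week. Higher interferon genes at 1 week were already known from earlier results of these arrays, so the counts are a description and not independent support.

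Ifit2, which blocks translation of viral RNA, had a level of -1.37 in control, 2.78 at 1 week, 1.57 at 2 weeks, and 0.42 at 4 weeks. It was 17.8-fold higher than control at 1 week, 7.68-fold at 2 weeks, and 3.46-fold at 4 weeks, the largest difference of the list at 1 and 2 weeks. Oasl2, of the oligoadenylate synthetase family, went from 1.96 in control to 5.18, 4.58, and 4.13. Both genes had the control array lowest and stepped down from the 1-week peak without reaching the control level. Ifit3, a partner of Ifit2, was at 1.92, 5.09, 4.59, and 3.33, and Irf7, the factor that amplifies interferon transcription, at -0.32, 2.09, 1.12, and 0.42. Isg15, a ubiquitin-like modifier of proteins, was at 4.24 in control and at 5.82, 5.54, and 5.61 after MI, and its other probe gave differences of 1.95, 1.72, and 1.55. Isg15 thus stayed near its 1-week level, while Irf7 at 4 weeks was 1.66-fold above control. Zbp1, a sensor of viral nucleic acid, also kept most of its difference, with 2.15, 1.98, and 1.82, and its other probe gave 3.47, 3.0, and 2.25. The smallest difference at 1 week was that of Trim30a, a regulator of innate signaling, with 0.44, and at 4 weeks the difference of Eif2ak2, the RNA-dependent kinase PKR, was -0.37 and that of Ifi44 -0.15.

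In the interferon-gamma list 12 of 15 genes were at least 2-fold higher than control at 1 week (6.76% of all genes), 11 at 2 weeks (5.62%), and 12 at 4 weeks (3.5%), with none 2-fold lower at any time. Gbp2, a guanylate-binding protein that attacks pathogen vacuoles, was at 1.23 in control, 4.09 at 1 week, 3.75 at 2 weeks, and 3.91 at 4 weeks. Its difference was 7.25-fold, 5.75-fold, and 6.42-fold, so the 3 arrays after MI lay close together and far from control. Igtp and Irgm1, immunity-related GTPases, were at 2.50, 4.71, 4.39, and 4.40 and at 1.83, 3.94, 3.69, and 3.16. The T cell-attracting chemokine Cxcl10 was at 1.18, 4.03, 3.24, and 2.91, and Cxcl9 at -0.46, 2.27, 1.21, and 0.81. The chemokines stepped down from 1 week to 4 weeks, whereas Gbp2 and Igtp were nearly level. Of the 15 genes, 11 peaked at 1 week (23.4% of all genes) and 4 at 4 weeks (34.2% of all genes). For 2 members with small differences the probes disagreed. Gbp6 had differences of -0.03, -0.31, and 0.76 with the probe used and 3.59, 3.04, and 2.27 with its other probe. Irf1, a transcription factor upstream of many of these genes, had differences of 0.69, 0.61, and 0.75 with the probe used and -0.62, -0.99, and 0.61 with the other.

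Promoters of these genes are shown as background, since the ISRE and GAS are short enough to be read by eye. The sequences are RefSeq promoters on GRCm38.p6, running from 250 bases before to 50 bases after the annotated start, 5′ to 3′ on the gene's strand, in lower case with matches in capitals. Isg15 (chr4:156200769-156201068, minus strand) held 3 overlapping matches to the ISRE letters, which were GAAA followed after any 2 bases by another GAAA, on either strand. Ifit3 (chr19:34583279-34583578, plus strand) held 2, and Gbp2 (chr3:142620413-142620712, plus strand) held 1.
Isg15: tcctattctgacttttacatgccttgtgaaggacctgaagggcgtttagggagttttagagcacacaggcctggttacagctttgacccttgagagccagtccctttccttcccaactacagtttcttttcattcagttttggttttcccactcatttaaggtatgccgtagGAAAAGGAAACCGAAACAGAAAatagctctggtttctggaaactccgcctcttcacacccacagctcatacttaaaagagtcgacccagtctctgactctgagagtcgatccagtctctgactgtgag
Ifit3: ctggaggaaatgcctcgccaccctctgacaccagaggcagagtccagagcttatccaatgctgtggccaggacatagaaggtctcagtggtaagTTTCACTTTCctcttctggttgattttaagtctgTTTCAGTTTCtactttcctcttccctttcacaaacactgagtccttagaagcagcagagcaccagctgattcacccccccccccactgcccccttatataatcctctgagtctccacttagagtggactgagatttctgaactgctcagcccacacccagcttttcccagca
Gbp2: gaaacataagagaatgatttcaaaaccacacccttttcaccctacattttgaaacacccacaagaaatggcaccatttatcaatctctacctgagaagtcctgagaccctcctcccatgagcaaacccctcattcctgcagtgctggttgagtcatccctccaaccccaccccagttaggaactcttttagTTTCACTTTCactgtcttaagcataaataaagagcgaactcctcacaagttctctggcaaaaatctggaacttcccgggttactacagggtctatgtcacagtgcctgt
The ISRE letters were found in 3.44% of all 32851 promoters, in 10 of 21 promoters of the antiviral list (47.6%), and in 9 of 13 of the interferon-gamma list (69.2%). These 21 and 13 promoters belong to 18 and 11 genes. The lists hold genes already known to respond to interferon, so their higher shares are no result of these arrays. The GAS letters TTCNNNGAA, the same on both strands, were found in 8.30% of all promoters, in 2 of 21 of the antiviral list, and in 6 of 13 of the interferon-gamma list (46.2%). A GAS can overlap an ISRE where both are present. The promoters of Ifit2, the gene with the largest difference of its list at 1 week, held no match to these ISRE letters in the window. A match is a description of the letters and was not tested against binding.

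**Figure D2:**
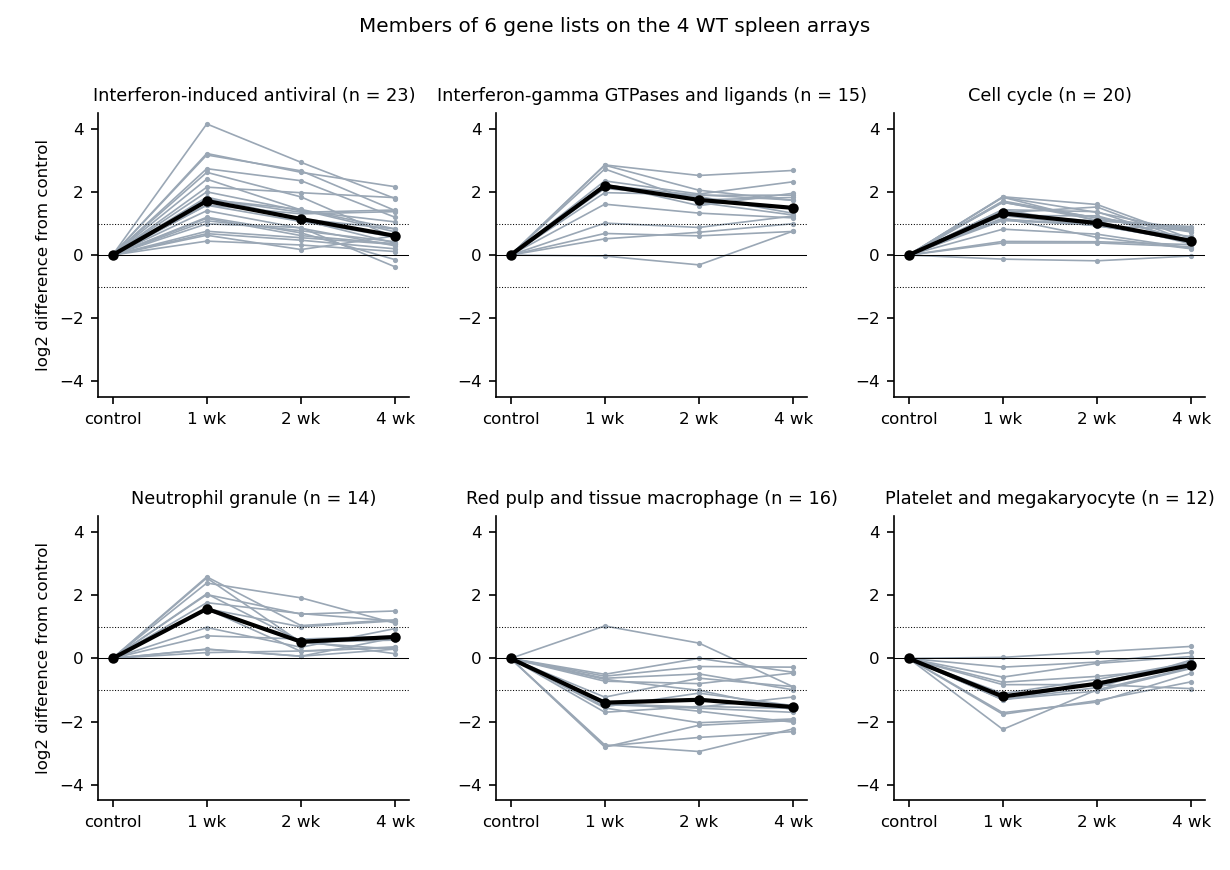
Log2 difference from control, on the y axis, at control and at 1, 2, and 4 weeks after MI, on the x axis, for each member (thin lines) and the median (thick line) of 6 lists in WT spleen. The medians of the antiviral and cell cycle lists peak at 1 week and step down, that of the interferon-gamma list is 1.50 at 4 weeks, and that of the red pulp macrophage list is -1.31 or lower at all 3 times, with Siglec1 above control at 1 week.

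The median of the cell cycle list was also highest at 1 week. Of its 20 genes, 16 were at least 2-fold higher at 1 week (6.76% of all genes), 10 at 2 weeks (5.62%), and none at 4 weeks (3.5%). The order 1 week, 2 weeks, 4 weeks, control was followed by 17, against 9.55% of all genes. Mcm5, a subunit of the helicase that opens DNA for replication, was at -0.36 in control, 1.49 at 1 week, 1.24 at 2 weeks, and 0.15 at 4 weeks. Mki67, a marker of cycling cells, was at 1.64, 3.47, 2.72, and 2.54, which is 3.57-fold, 2.12-fold, and 1.87-fold above control. Bub1, a mitotic checkpoint kinase, had differences of 1.83, 1.35, and 0.74. For these 3 genes the 1-week array was highest and the 4-week array nearest to control. Tyms, the thymidylate synthase, stood apart from the list with -0.13, -0.18, and -0.03. Transcription of many replication genes is driven by E2F factors. The letters TTTCCCGC or TTTGGCGC, on both strands, were in 1.56% of all promoters and in 4 of 18 promoters of this list (22.2%). The list holds known cell cycle genes, so this share is no result of these arrays either. The promoter of Mcm5 (GRCm38.p6 chr8:75109259-75109558, plus strand) is shown as the member with the largest difference at 1 week, with its single match in capitals.
Mcm5: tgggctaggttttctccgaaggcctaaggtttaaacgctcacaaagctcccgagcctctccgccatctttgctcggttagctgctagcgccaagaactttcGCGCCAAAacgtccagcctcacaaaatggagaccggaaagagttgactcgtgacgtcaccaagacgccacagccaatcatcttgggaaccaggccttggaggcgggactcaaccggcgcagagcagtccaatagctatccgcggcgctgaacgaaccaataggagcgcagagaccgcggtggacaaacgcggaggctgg

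The neutrophil granule list had a median above control at all times, but its members did not all follow 1 course. Of 14 genes, 9 were at least 2-fold higher at 1 week (6.76% of all genes), 5 at 2 weeks (5.62%), and 5 at 4 weeks (3.5%), and all 14 had their lowest level in control, against 30.3% of all genes. Elane, the neutrophil elastase made at the promyelocyte stage, was at 0.74 in control, 3.29 at 1 week, 1.24 at 2 weeks, and 1.03 at 4 weeks. Mpo, the myeloperoxidase of the same granules, was at 2.47, 4.04, 2.69, and 2.82. Both were high on the 1-week array alone, with Elane 5.85-fold and Mpo 2.96-fold above control there. Prtn3, another protease of these granules, had differences of 2.05, 0.55, and 0.15. Ms4a3, a marker of granulocyte and monocyte progenitors, was at 0.12, 2.71, 1.16, and 1.34. Cebpe, the transcription factor of secondary granules, was at 3.90, 5.93, 5.31, and 5.41, so it kept a difference of 1.40 and 1.50 at the later times. Pglyrp1 and Lcn2, secondary granule proteins, also stayed up, with 2.39, 1.92, and 1.11 and with 1.77, 1.42, and 1.18. Camp (0.18, 0.23, and 0.36) and Mmp8 (0.30, 0.07, and 0.66) lay within 2-fold of control throughout. Markers of haematopoietic progenitors as a list had medians of 0.21, 0.16, and 0.18. Mature neutrophil genes were close to control, with list medians of 0.27, 0.21, and 0.44. Their members ranged from differences of 1.03, 0.99, and 1.37 for Mmp9, the gelatinase of tertiary granules, to those of Il1r2, the decoy receptor of interleukin 1, with -1.07, -1.95, and -0.50. S100a8, an abundant calcium-binding protein of neutrophils, differed by 0.29, 0.23, and 0.30.

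Most genes of red pulp and tissue macrophages were below control on every array after MI. Of 16 genes, 10 were at least 2-fold lower at each of the 3 times (10.7%, 8.95%, and 2.2% of all genes), and 14 had their highest level in control, against 23.8% of all genes. Timd4, a receptor for phosphatidylserine on dying cells, was at 1.68 in control, -1.13 at 1 week, -0.44 at 2 weeks, and -0.29 at 4 weeks. It was 7.01-fold, 4.35-fold, and 3.91-fold lower. Marco, a scavenger receptor of marginal zone macrophages, was at 1.46, -1.32, -1.04, and -0.86, and Cd163, the receptor for haemoglobin and haptoglobin, at -2.05, -4.79, -5.00, and -4.28. For these receptors the 3 arrays after MI lay together, apart from control. Spic, the transcription factor that red pulp macrophages require, was at 3.80, 2.27, 2.70, and 2.30. The adhesion molecule Vcam1 had differences of -1.57, -2.04, and -1.92, and its other probe gave -2.57, -2.66, and -2.34. Not all members followed. Slc40a1, the iron exporter ferroportin, had -0.56, -0.26, and -0.28, and Cd5l, a secreted macrophage protein, -0.50, 0.00, and -0.44. Siglec1, a marker of metallophilic macrophages that interferon also induces, had differences of 1.03, 0.48, and -0.90 with the probe used and -0.20, -0.96, and -0.76 with its other probe.

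Type 2 macrophage genes, which interleukin 4 induces through STAT6, had list medians of -0.32, -0.85, and -0.76, the first of which was above 0 when arrays were scaled to the median. Mrc1, the mannose receptor, which is also on the red pulp list, was at 3.37 in control, 1.66 at 1 week, 1.84 at 2 weeks, and 1.78 at 4 weeks. Arg1, the arginase of alternatively activated macrophages, was at -4.62, -4.34, -4.89, and -6.53, so that only the 4-week array was more than 2-fold below control. That 4-week level lay close to -6.61, the lowest signal well above background on that array. The size of the fall is therefore uncertain. Mgl2, a lectin of alternatively activated macrophages, was higher, with 1.33, 1.27, and 0.97. Among monocyte genes, Ly6c1 had differences of 1.24, 1.14, and 1.07, and the chemokine receptor Ccr2, needed for monocytes to leave the bone marrow, 0.31, -0.28, and 0.07. The conventional dendritic cell list had medians of -0.52, -0.60, and -0.12, with differences for Zbtb46, the factor that marks these cells, of -2.23, -1.81, and 0.03. For this list and the type 2 list, the WT control array had the highest median level among 11 spleen arrays. Class II presentation genes, shared by dendritic cells, B cells, and macrophages, lay near control with 0.12, 0.02, and 0.03.

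The platelet and megakaryocyte list had its lowest median at 1 week and came nearest to control at 4 weeks, with -1.21, -0.80, and -0.21. Of 12 genes, 7 were at least 2-fold lower at 1 week (10.7% of all genes), 3 at 2 weeks (8.95%), and none at 4 weeks (2.2%). Ppbp, a platelet chemokine, was at 1.22 in control, -1.03 at 1 week, 0.23 at 2 weeks, and 0.93 at 4 weeks, and Pf4, platelet factor 4, at 2.18, 0.41, 0.84, and 1.44. In both genes the order of the arrays was 1 week, 2 weeks, 4 weeks, control, from lowest to highest. Vwf, the von Willebrand factor of platelets and endothelium, had differences of -0.83, -0.83, and -0.96, and Itgb3, an integrin of platelets, of 0.03, 0.21, and 0.38. The erythroid list had medians of 0.31, 0.27, and -0.80. Of its 14 genes, 3 were at least 2-fold higher and 3 lower at 1 week (6.76% and 10.7% of all genes), 2 and 3 at 2 weeks (5.62% and 8.95%), and 0 and 3 at 4 weeks (3.5% and 2.2%). Klf1, the factor that switches on erythroid genes, was at -0.58, 1.69, 1.69, and -0.33, and Gfi1b, a factor of erythroid and megakaryocyte precursors taken from the progenitor list, had differences of 2.45, 2.39, and 0.65. Alas2, the first enzyme of haem synthesis in red cells, was at 0.94, -0.77, -0.90, and -1.69, and Hba-a1, an alpha globin, had -1.47, -1.47, and -2.50. Thus Klf1 and Gfi1b were higher at 1 and 2 weeks while Alas2 and this globin were lower at all times.

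The T cell, B cell, and NK lists had their highest medians at 2 weeks and their lowest at 1 week. Of 13 T cell genes, 11 were at least 2-fold lower than control at 1 week (10.7% of all genes), whereas 4 were at least 2-fold higher at 2 weeks (5.62%). Cd3g, a chain of the T cell receptor complex, was at 0.35 in control, -2.14 at 1 week, 0.70 at 2 weeks, and 0.50 at 4 weeks. Il7r, the interleukin 7 receptor, was at 0.19, -2.13, 0.16, and -0.87. Cd3d, of the same complex as Cd3g, was an exception, with 0.85 at 1 week, 1.14 at 2 weeks, and 1.06 at 4 weeks. On the 1-week array 12 of the 13 had their lowest level of the 4 arrays, against 31.4% of all genes. Among 12 B cell genes, 3 were 2-fold lower at 1 week (10.7% of all genes) and 5 were 2-fold higher at 2 weeks (5.62%), and 9 peaked at 2 weeks, against 18.5% of all genes. Cd79b, of the B cell receptor, was at 3.50, 3.31, 5.00, and 3.89, and Cr2, the complement receptor of marginal zone and follicular B cells, at 1.29, 0.97, 2.83, and 1.91. Both had the 2-week array highest, with the other arrays within 2-fold of control. NK and cytotoxic genes had medians of -0.55, 0.50, and 0.25, with differences of 0.43, 1.87, and 0.62 for Gzmb, a granzyme, and, for Eomes, a transcription factor of NK cells, of -2.17, 0.02, and -0.17. The summed signal of the B cell list, in units of the 75th percentile, was 33.5 in control, 28.3 at 1 week, 87.3 at 2 weeks, and 45.7 at 4 weeks, and that of the T cell list was 24.6, 15.0, 37.0, and 28.6. The part of carried-over lymphocytes in the other differences at these times was not tested.

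The plasma cell list had medians of 0.42, 1.67, and 0.20. Of 9 genes, 4 were at least 2-fold higher at 1 week (6.76% of all genes), 5 at 2 weeks (5.62%), and 1 at 4 weeks (3.5%). At 1 week 4 of the 9 lay below control and 5 above it, against 46.4% of all genes above control. Mzb1, a chaperone for antibody assembly, was at -0.56 in control, 1.49 at 1 week, 2.04 at 2 weeks, and 0.09 at 4 weeks. Jchain, which links antibody units, was at 3.11, 4.33, 4.96, and 3.52, and Tnfrsf17, the survival receptor BCMA, at -3.70, -2.15, -0.99, and -2.58. The 2-week array was highest for all 3, and control lowest. Prdm1, the factor that commits B cells to secretion, did not share this order, with -0.78, -0.62, and -0.85, nor did Irf4, with -0.82, 0.08, and 0.20. Genes known from germinal centre B cells were among those furthest above control at 2 weeks. Nuggc, a GTPase of germinal centre B cells, was at -6.68, -3.06, -1.18, and -2.83. Rgs13, a regulator of chemokine signaling in these cells, was at -3.27, -2.63, -0.19, and -1.01. Both were highest at 2 weeks and above control at 4 weeks. Their link was noticed after their values were seen, and dim control signals such as that of Nuggc make the size of a fold uncertain.

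**Figure D3:**
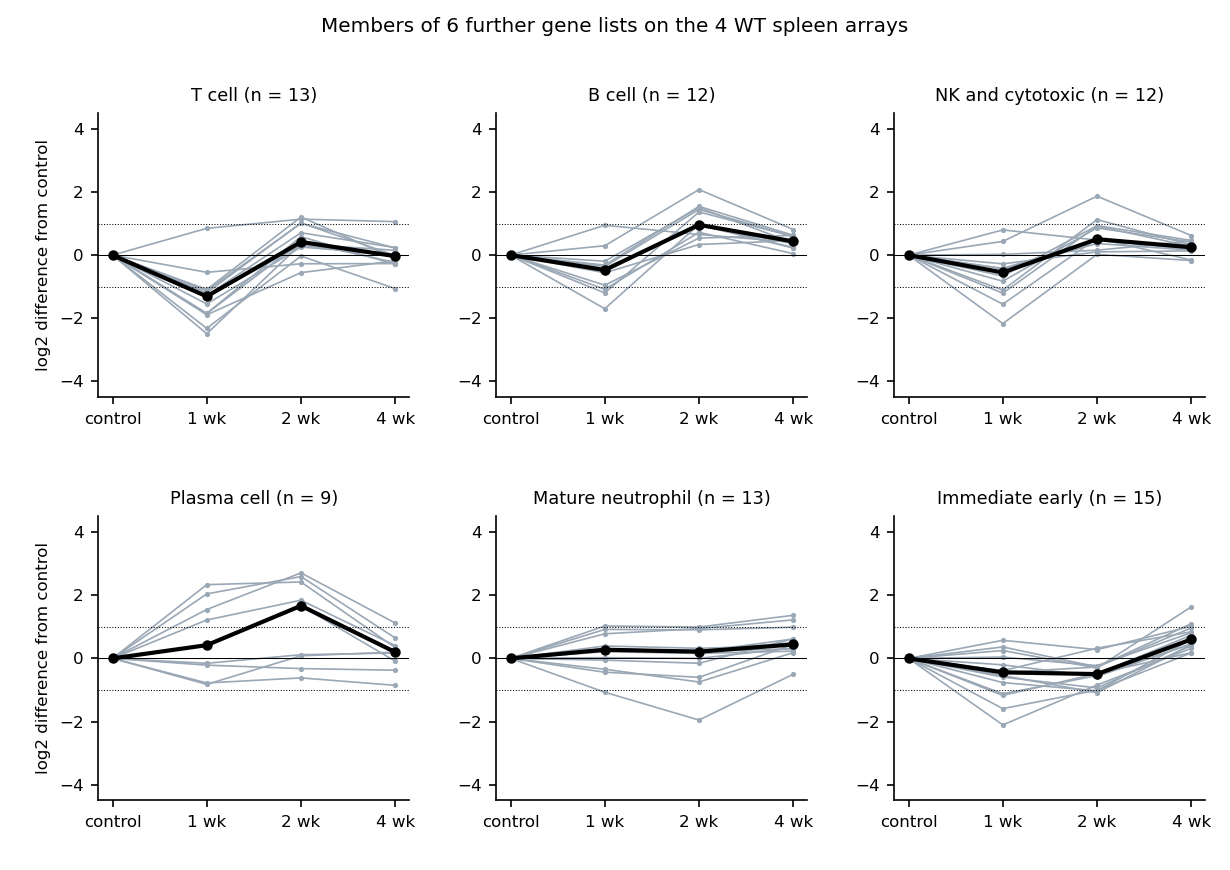
Log2 difference from control, on the y axis, at control and at 1, 2, and 4 weeks after MI, on the x axis, for each member (thin lines) and the median (thick line) of the T cell, B cell, NK, plasma cell, mature neutrophil, and immediate early lists in WT spleen. The T cell median is -1.31 at 1 week and 0.42 at 2 weeks, the B cell and plasma cell medians are highest at 2 weeks (0.96 and 1.67), and the immediate early median is highest at 4 weeks (0.60).

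The immediate early list had its highest median at 4 weeks. All 15 immediate early genes had their highest level on the 4-week array, against 34.2% of all genes, although 3 were 2-fold above control (3.5% of all genes). Fosb, a subunit of the AP-1 factor, was at 0.96 in control, 1.21 at 1 week, 0.65 at 2 weeks, and 2.59 at 4 weeks, and Atf3, a stress-induced factor, had differences of -0.44, -0.27, and 1.1. Egr1, a rapidly induced transcription factor, was at 5.55, 4.38, 5.07, and 5.73, so its 1-week array was low and its 4-week array close to control. Mature neutrophil genes peaked at 4 weeks in 12 of 13 cases, against 34.2% of all genes. When arrays were scaled to the median they did so in 5 of 13 cases, against 4281 of all 22461 genes. Of 11 basophil and mast cell genes, 6 were at least 2-fold higher at 4 weeks (3.5% of all genes). Mcpt8, a basophil protease, was at -1.72, -0.91, -0.09, and 0.09, and Fcer1a, the high-affinity receptor for IgE, had differences of -0.19, 0.93, and 1.54. Prss34, another basophil protease, had 1.72, 2.39, and 1.53, and Hdc, which makes histamine, 0.19, -0.22, and 0.29.

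**Figure D4:**
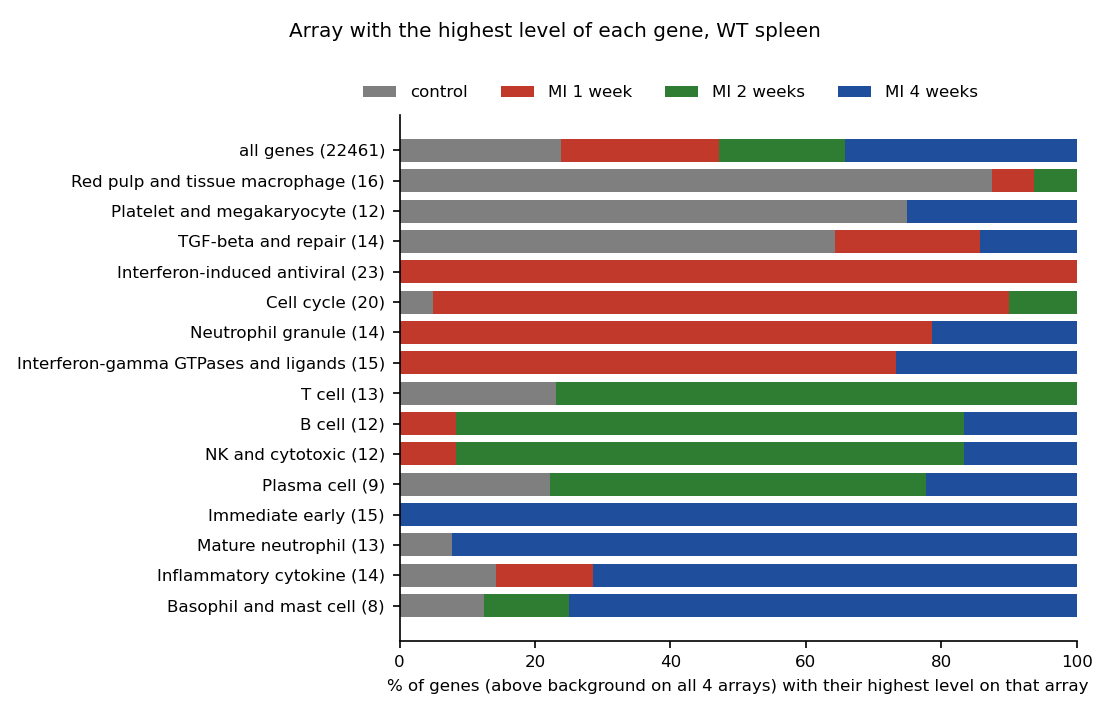
Share of the genes of each list, and of all 22461 genes above background on the 4 arrays, whose highest level lay on the control, 1-week, 2-week, or 4-week array of WT spleen (percent, stacked to 100). All 23 antiviral genes peak at 1 week, 10 of 13 T cell and 9 of 12 B cell genes at 2 weeks, and all 15 immediate early genes at 4 weeks.

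Of 14 inflammatory cytokine genes, 1 was at least 2-fold higher and 5 were lower at 1 week (6.76% and 10.7% of all genes). At 2 weeks 3 were lower (8.95%), and at 4 weeks 2 were higher and 1 lower (3.5% and 2.2%). Tnf, a cytokine that activates endothelium and leukocytes, was at -1.71 in control, -0.13 at 1 week, -0.72 at 2 weeks, and -0.31 at 4 weeks. Ptgs2, the inducible cyclooxygenase, was at 3.03, 0.60, 2.29, and 3.75, with the 1-week array lowest and 5.41-fold below control. Il1b lay near control with -0.02, 0.04, and 0.26. The chemokine Ccl2, which draws monocytes from the bone marrow through Ccr2, was at 0.15, 2.11, -0.32, and 2.60. It was 3.91-fold higher at 1 week and 5.49-fold higher at 4 weeks, with 2 weeks slightly below control. Ccl7 and Ccl12, related chemokines that also bind Ccr2, gave bounds. Ccl12 was well above background after MI only, at least 10.9-fold higher at 1 week, 2.32-fold at 2 weeks, and 1.22-fold at 4 weeks, and Ccl7 was at least 3.04-fold higher at 1 week and 3.0-fold at 4 weeks. Cxcl2, a neutrophil attractant, was at 1.52, 1.09, -0.30, and 3.03, lowest at 2 weeks and highest at 4 weeks. Cxcl13, which guides B cells into follicles, stayed lower with -1.21, -1.39, and -1.13.

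The STAT genes of the study question depended on the probe. Stat6, which carries interleukin 4 signals, was at 2.38 in control, 2.79 at 1 week, 2.75 at 2 weeks, and 2.90 at 4 weeks with the probe used, so it lay above control at each time. Of its other probes, 1 gave differences of -0.92, -1.13, and 0.12 and the other -0.37, -1.43, and 0.08, below control at 1 and 2 weeks. Stat3, the factor of interleukin 6 signals, was at 3.49, 3.50, 3.38, and 3.57, but its other probe gave -0.86, -1.25, and -0.33. No direction is therefore given for Stat3 or Stat6. Of the feedback inhibitors, Socs1, which interferons induce and which dampens their signal, was higher by 1.46, 1.87, and 1.58, while Socs2 had differences of -1.44, -0.85, and -0.85. The median of the STAT and SOCS list was -0.09, -0.10, and 0.05, close to that of all genes. Of 14 TGF-beta and repair genes measured, 5 were at least 2-fold lower at 1 week (10.7% of all genes), 3 at 2 weeks (8.95%), and 3 at 4 weeks (2.2%), when 2 were higher (3.5%). Tgfb2 was at -2.15, -4.25, -4.97, and -5.04, and its other probe gave -2.90, -3.27, and -3.62. Thbs1, a matrix protein that activates latent TGF-beta, had differences of -1.94, -1.79, and -0.81. Vegfa, the main growth factor of blood vessels, was at -1.97, -1.02, -1.35, and 0.15, 4.36-fold above control at 4 weeks, and its other probe gave 0.53, -0.46, and 1.63. Postn, a matrix protein of fibroblasts, was at 2.21 in control, -1.14 at 1 week, -1.03 at 2 weeks, and -0.87 at 4 weeks, whereas Col5a1, a collagen chain, was higher by 2.17, 2.04, and 1.03. The matrix list thus held members on both sides, with medians of -0.25, -0.54, and 0.24.

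Among metabolic and stress lists, none of 20 oxidative phosphorylation genes and none of 12 unfolded protein response genes passed 2-fold at any time. Of all genes 17.5%, 14.6%, and 5.7% did so at the 3 times. The medians of these 2 lists lay between 0.02 and 0.24. Glycolysis genes had medians of 0.70, 0.41, and 0.46. At each time 14 of 16 lay above control, against 46.4%, 47.3%, and 61.5% of all genes. Of the 16, 3 were at least 2-fold higher at 1 week (6.76% of all genes), 3 at 2 weeks (5.62%), and 1 at 4 weeks (3.5%). The heat shock list had medians of 0.54, 0.48, and 0.55. Of its 9 genes, 3 were at least 2-fold higher at 1 week (6.76% of all genes), 2 at 2 weeks (5.62%), and 3 at 4 weeks (3.5%). All 9 lay above control at 4 weeks, against 61.5% of all genes. Hspa1a, the inducible heat shock protein of the Hsp70 family, was at -2.85 in control, 0.96 at 1 week, 0.78 at 2 weeks, and 1.60 at 4 weeks. It was 14.0-fold, 12.4-fold, and 21.9-fold higher, the largest difference of any gene named at 4 weeks. Hsph1, a partner of Hsp70, was higher by 1.82, 1.18, and 1.17.

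The genes furthest from control were taken in each direction, 10 at each time, among 14494 named genes above background on all 4 arrays. Furthest above control at 1 week was Ly6a, the stem cell antigen Sca-1, which interferons induce. It was at -1.63 in control, 3.20 at 1 week, 2.92 at 2 weeks, and 0.47 at 4 weeks. Ly6f, of the same family, had differences of 3.58, 3.40, and 2.50, and Saa3, an acute phase protein of macrophages, was at -1.98, 1.40, -1.05, and -2.18. Ly6a was still 4.29-fold above control at 4 weeks, and Saa3 was slightly below its control level by then. Krt17, a keratin, was higher by 3.60, 2.79, and 3.43. Adgrb1 was higher by 3.55, 2.72, and 2.29 with the probe used, but its other probe gave -0.96, -1.05, and 0.29. Furthest below control at 1 week was Fam13c, at 1.20 in control and -5.16, -4.39, and 0.87 after MI, so it was near control at 4 weeks only. On other slides the differences of Fam13c were -5.16, -6.10, and 1.05 in STAT6-KO spleen and 0.12, 1.37, and 4.56 in WT bone marrow. Nog, an antagonist of bone morphogenetic proteins, had differences of -4.36, -3.18, and -0.45, and Il1r1, the signaling receptor of interleukin 1, -3.90, -3.11, and -2.68. Trnp1 had -3.96, -3.09, and -3.35, with -0.10, -1.24, and -0.07 for its other probe.

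At 2 weeks Nuggc (5.50) and Ly6a (4.55) were furthest above control, followed by Sult4a1, a sulfotransferase, with 4.32 at 2 weeks against -0.16 at 1 week. Furthest below after Fam13c was Fam71a with -3.98. Sult1a1, another sulfotransferase, differed by -3.63 with either probe at 2 weeks. At 4 weeks Plcd3, a phospholipase C, followed Hspa1a with 3.95, against -0.55 at 1 week and -0.39 at 2 weeks, and its other probe gave 4.16 at 4 weeks. G0s2, an inhibitor of fat breakdown, was at 0.24 in control, 0.31 at 1 week, 0.66 at 2 weeks, and 2.91 at 4 weeks. Both Plcd3 and G0s2 were high on the 4-week array alone. Vsig4, the complement receptor of resident macrophages, had differences of -2.14, -3.01, and -3.04, and Fabp4, a fatty acid-binding protein, one of -3.17 at 4 weeks. The difference of Prg4 at 4 weeks was -3.12, but 0.22 with its other probe. Where a second probe of a gene past 2-fold could be read, it had the same sign in 85.0% of probe pairs at 1 week, 79.3% at 2 weeks, and 89.9% at 4 weeks, and passed 2-fold as well in 39.1%, 33.4%, and 39.0%.

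**Figure D5:**
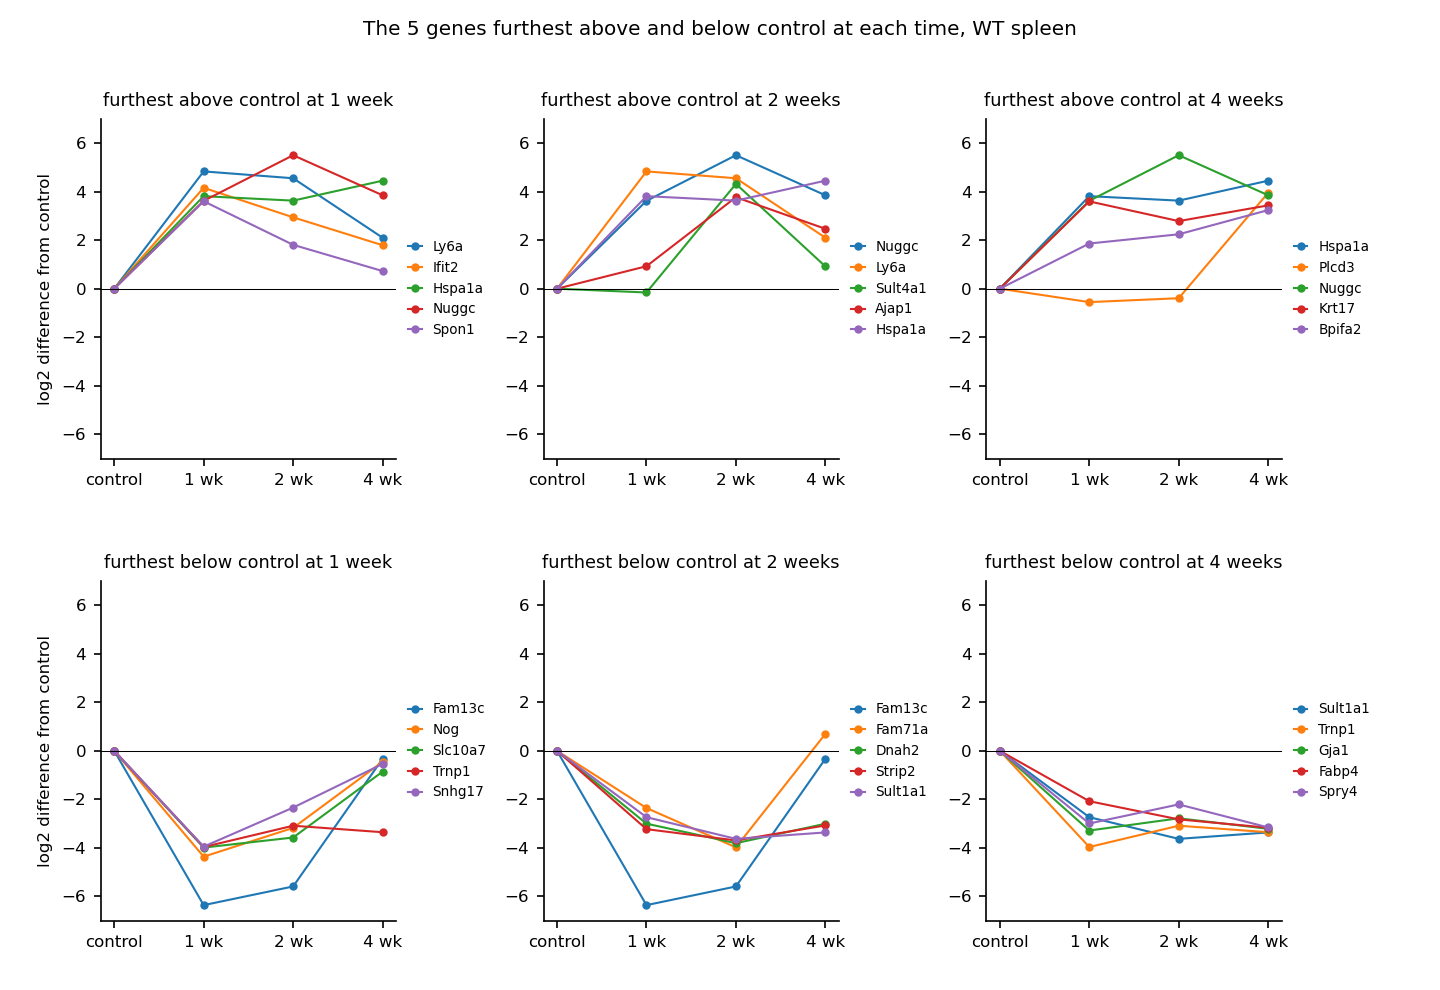
Log2 difference from control, on the y axis, on the 4 WT spleen arrays, on the x axis, for the 5 named genes furthest above control (upper panels) and below control (lower panels) at 1 week, 2 weeks, and 4 weeks after MI, 1 line a gene. Ly6a and Ifit2 lead at 1 week and Nuggc at 2 weeks (5.50), while Plcd3 lies high at 4 weeks only (3.95), and the 5 genes furthest below control at 4 weeks were already low at 1 and 2 weeks.

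Patterns over the 3 times were counted by fixed limits. Of 22461 genes above background on all 4 arrays, 357 (1.59%) were at least 2-fold higher at all 3 times and 285 (1.27%) at least 2-fold lower. The shared control array enters each of these counts. A difference at 1 week with levels within 0.5 of control at 2 and 4 weeks was found for 71 genes upward (0.316%) and 220 downward (0.979%). The upward genes were led by Saa1, an acute phase protein, with 2.38 at 1 week, 0.43 at 2 weeks, and -0.07 at 4 weeks, and by Ube2l6, the enzyme that carries Isg15 to its targets, with 1.73, 0.43, and -0.14. The downward genes were led by Homer2 with -2.66 at 1 week and included Gata3, the factor of type 2 helper T cells, with -2.50, and Cd3g. A difference at 4 weeks alone was found for 90 genes upward (0.401%) and 19 downward (0.0846%). G0s2 led the upward genes, which included Ciart, a repressor of the circadian clock, with 2.01 and Cd69, an early activation marker of leukocytes, with 1.89. Arg1, close to the background limit at 4 weeks, led the downward genes, before Serpinb2, an inhibitor of plasminogen activators, with -1.79.

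Some genes were well above background on a single array of a pair, which gives only a bound. At 1 week 117 genes were above background after MI alone and 2712 in control alone, and the bound was at least 2-fold for 71 and 425 of them. The counts were 425 and 1393 at 2 weeks and 577 and 548 at 4 weeks. After Prm1, a protamine of sperm, with at least 27.1-fold, Ccl12 had the largest bound after MI alone at 1 week. Mbl2, the mannose-binding lectin of liver, was at least 33.3-fold lower at 1 week, and Fabp1, a liver fatty acid-binding protein, at least 22.2-fold lower. Adamts9, a matrix protease, was in control alone at all 3 times, at least 9.21-fold, 12.4-fold, and 12.5-fold lower.

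The same lists on other slides are given side by side, without a test of the difference. In WT bone marrow CD11b+ cells the interferon-gamma list had medians of 2.14, 1.83, and 1.25 and the antiviral list 2.55, 1.42, and 0.40 at 1, 2, and 4 weeks, against 2.20, 1.75, and 1.50 and 1.72, 1.15, and 0.61 in WT spleen. In STAT6-KO spleen the antiviral list had 0.40, 0.45, and 2.16. The cell cycle list was at -0.45, -0.31, and -0.58 in bone marrow and at 0.78, 0.17, and -0.34 in STAT6-KO spleen, against 1.32, 1.02, and 0.45 here. Red pulp macrophage genes had -0.58, -0.48, and -1.03 in bone marrow and 0.37, 0.04, and -0.06 in STAT6-KO spleen. The immediate early list had 0.95, -0.32, and 0.64 in bone marrow and -0.19, -0.26, and 0.91 in STAT6-KO spleen. In WT spleen it had -0.44, -0.50, and 0.60. The T cell list had 0.18, -0.09, and 0.02 in bone marrow and -1.34, 0.01, and -0.09 in STAT6-KO spleen. In WT spleen its medians were -1.31, 0.42, and -0.03. At 1 week 11 of 13 T cell genes were at least 2-fold lower in STAT6-KO spleen too (8.14% of all genes there). Among 11 spleen arrays of 3 genotypes, the WT control array ranked 9 from the lowest for the red pulp list, and the WT arrays at 1, 2, and 4 weeks ranked 3, 2, and 1. For the antiviral list the WT control array ranked 5 and the 1-week array was the highest of the 11. The WT control array was at an extreme for other lists. It was the lowest of the 11 for the plasma cell, plasmacytoid dendritic cell, glycolysis, and unfolded protein response lists. It was the highest for the platelet, type 2 macrophage, and conventional dendritic cell lists. For the plasma cell list the WT 2-week array ranked 7 from the lowest. Slide and group cannot be told apart in these ranks.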

How the data were processed

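RNA of CD11b+ cells was hybridised to 1-colour Agilent mouse arrays (Cy3). The deposited values used here are processed signal intensities that the authors obtained with Feature Extraction 11.0.1.1, which subtracts background and removes spatial trends. The authors' methods name Genespring and a fold threshold of 2, and the submitters' processing notes also list GCRMA; the values used were the scanner signals on a linear scale.

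Control spots were left out. Each signal was taken to log2 after division by the 75th percentile of its array. Spots of a probe were averaged, leaving 39429 probes. Of these, 27234 were named through their RefSeq accession (20659 symbols, GRCm38.p6) and 12195 kept the file's identifier. A gene with several probes is given by the probe with the highest mean over 22 full arrays, and other probes are quoted where they disagree in sign or are informative. A gene was compared where it was well above background on both arrays, and called at 2-fold. Where it was above background on 1 array, the ratio to the higher of the dim signal and the lowest signal well above background gave the bound. No spot was saturated on the 4 arrays.

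No test was possible with 1 array a group, and the number of arrays limits the precision. Members and lists were chosen with earlier results of these data known. The genes named were the 10 furthest from control each way at each time, the first 5 of each time pattern, the 5 largest bounds each way from which examples were taken, the highest, lowest, and best-known members of 32 lists (420 of 430 symbols on the array), and genes of the study question. Some genes are not reported here. Members noticed after their values were seen are said to be so. The 8 alternatives were normexp background correction with an offset of 50 (limma 3.58.1, R 4.3.3), on the median spot signal since the mean is not used here; quantile normalization; scaling to the median; the 75th percentile over probes above background on all 4 arrays; a floor on low signals; filters requiring 4 arrays or either array above background; and averaging a gene's probes. Other steps used Python 3.11.15 with numpy 2.4.6 and pandas 2.3.3, and were tested on simulated arrays. HDC-KO spleen control (229 spots) and STAT6-KO bone marrow at 1 week (85 spots) were too short to use.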

Additional observations from a re-analysis of the deposited data

Results flagged for a closer look

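The plasma cell list differed in direction between genotypes at 2 weeks after MI. Its median difference from control was 1.67 in WT spleen and -1.01 in STAT6-KO spleen, each from 1 array after MI and 1 control array on a slide of its own. The WT control array had the lowest median level of this list among 11 spleen arrays, and the WT 2-week array ranked 7 from the lowest. The difference between the genotypes was not tested, and slide and genotype cannot be told apart.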

How the results depend on the processing

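No paired analysis was possible because each condition had 1 array and no test was run, and no array could be left out. No list median past 2-fold changed sign under the 8 alternatives, nor did the 10 genes furthest from control each way at each time. These were picked for large differences, so a kept sign says little. The filters on background could not alter the values of these genes, which were above background on all 4 arrays. List members whose probes disagree, such as Gbp6 and Stat6, were not included. Of 48 counts of genes past 2-fold, 39 stayed within 1.5 times the value given, and the other 9 were as follows. Scaling to the median gave 2831 genes higher and 1456 lower at 1 week and 2229 higher and 1390 lower at 2 weeks. Normexp gave 1425 lower at 1 week, 1114 lower at 2 weeks, and 496 higher and 288 lower at 4 weeks. Requiring a signal above background on either array gave 3666 lower at 1 week. The share of called genes that were higher was 46.0%, 44.7%, and 63.3% at the 3 times with normexp, and 31.2%, 32.6%, and 52.4% with the 75th percentile over probes above background on all 4 arrays. The list medians that changed sign under some alternative all lay between -0.32 and 0.21. Of 768 recomputed list medians 81 moved by more than the combined spot-to-spot SD of both arrays, and of 480 values of those furthest genes 101 did. Counts of members by the array with their highest level were added after the data were seen, and 117 of 128 stayed within 1.5 times. The 1-week array had the fewest spots above background, so absence of signal there bounds low genes only.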
